A study of Mus musculus with 4 samples.

Results

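Activated neutrophils with high levels of the chemokine genes Ccl3 and Ccl4 were taken from single-cell RNA libraries of mouse tumour leukocytes. A cell barcode was a neutrophil when it had 300 to 5000 genes and at most 6% of its transcript counts from mitochondrial genes, held at least 2 of the 4 genes Csf3r, Cxcr2, G0s2 and Hdc, and had no count of the macrophage genes Csf1r and C1qa, the T cell gene Cd3e or the B cell gene Cd79a. It was a Ccl3-high neutrophil when Ccl3 and Ccl4 together reached at least 20 of every 10000 unique molecular identifiers (UMIs, each of which stands for 1 captured transcript). Of 55090 deposited barcodes, 51841 were within the gene and mitochondrial limits and 6354 were neutrophils. Of these neutrophils 3605 were Ccl3-high and 2749 were under the limit. Because measured Ccl3 and Ccl4 chose the cells, every difference between Ccl3-high and under-limit neutrophils below is a description of that choice and carries no test.

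The cells came from KPC tumours, grown under the skin of male C57BL/6NHsd mice from a line that was derived from a pancreatic tumour with mutant Trp53 and Pdx1-Cre. The 4 groups were untreated mice, mice given the stimulator of interferon genes (STING) agonist ADU-S100 as a single injection into the tumour, mice given the lymphotoxin-beta receptor (LTbR) agonist, an antibody injected into the peritoneum in 4 doses, and mice given both, the combination. Tumours were removed on day 14, digested with enzymes and sorted for living cells with CD45, the surface protein of leukocytes. Each group is 1 library made from 10 tumours mixed together, so mice cannot be told apart within a library, the groups have no replicate in these data and no p-value is given. All confidence intervals are 95% intervals for counting error only, and values for the 4 libraries always follow the order untreated, STING agonist, LTbR agonist and combination.

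Ccl3 and Ccl4 encode secreted CC chemokines that bind the receptor Ccr1 and attract monocytes, T cells and neutrophils. Neutrophils carry these genes at low levels in blood and switch them on, with Cxcl2, Tnf and Il1a, when NF-kB is activated by microbial products, cytokines or tissue damage. STING senses cyclic dinucleotides and drives type I interferon and NF-kB target genes, and LTbR is a receptor of stromal and myeloid cells that activates NF-kB.

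The promoter letters of 3 chemokine genes are shown because the members were chosen on Ccl3, and because Cxcl2 and Cxcl3 were both higher in them in every library. Each line gives the 250 bases before the RefSeq start site, 5′ to 3′ on the gene's strand, in build GRCm38.p6. Capitals mark the letters GGGAATTTCCC.
Ccl3 (chr11:83649379-83649628, minus strand): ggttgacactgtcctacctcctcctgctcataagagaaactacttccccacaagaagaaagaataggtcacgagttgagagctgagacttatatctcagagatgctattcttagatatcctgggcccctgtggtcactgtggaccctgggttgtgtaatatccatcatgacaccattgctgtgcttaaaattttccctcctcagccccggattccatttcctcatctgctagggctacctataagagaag
Cxcl2 (chr5:90903649-90903898, plus strand): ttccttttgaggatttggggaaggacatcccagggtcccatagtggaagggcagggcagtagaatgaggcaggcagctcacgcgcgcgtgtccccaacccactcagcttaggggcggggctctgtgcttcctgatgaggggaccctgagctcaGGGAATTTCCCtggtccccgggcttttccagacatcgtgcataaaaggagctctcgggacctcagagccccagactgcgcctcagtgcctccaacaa
Cxcl3 (chr5:90785851-90786100, plus strand): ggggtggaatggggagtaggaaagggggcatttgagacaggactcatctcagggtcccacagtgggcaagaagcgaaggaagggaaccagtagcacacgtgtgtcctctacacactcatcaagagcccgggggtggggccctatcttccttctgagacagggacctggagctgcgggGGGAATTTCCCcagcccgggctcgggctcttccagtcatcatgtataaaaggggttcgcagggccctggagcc
The marked letters begin 97 bases before the start site in Cxcl2 and 73 bases before it in Cxcl3. They lie in 14 of 32851 promoters of this length (0.0426%) and were chosen after these sequences were seen. The 10-letter NF-kB consensus, searched on both strands, matched 2 overlapping positions inside those letters in each gene, was in 3137 promoters (9.55%) and did not match the Ccl3 window. On both strands, the AP-1 letters TGANTCA were in none of these windows and in 2217 promoters (6.75%). The hypoxia core ACGTG was present 2 times in Cxcl3, once on each strand at overlapping letters, and in 5444 promoters (16.6%). A match describes letters and does not show binding.

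The libraries held 62248447, 85855398, 73704334 and 52109958 UMIs over 8730, 15404, 14634 and 16322 barcodes. The median Ccl3-high neutrophil had 1932, 2385, 1677 and 1063 UMIs and 769, 816, 674.5 and 511 genes, so members were shallowest in the combination library and deepest in the STING agonist library. Under-limit neutrophils had 1853, 2008, 1721 and 1062 UMIs at the median, close to the members of the same library. Summed over cells, members supplied 345019, 6578268, 845987 and 638202 UMIs, and values of the untreated library rest on the fewest. Each library shared 109, 173, 147 and 180 barcodes with another, among them 3, 21, 5 and 3 members.

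The 5 markers of the label are described here, beside 8 neutrophil markers that the rule does not use. The label and its markers were chosen with earlier results of these data known, so they are no independent check. Those 8 markers, S100a8, S100a9, Retnlg, Mmp9, Il1r2, Acod1, Ly6g and Trem1, summed to 50336, 63764, 63560.1 and 61625 counts per 1000000 UMIs (CPM) in Ccl3-high neutrophils and to 49408, 66742, 89818 and 52815 CPM in under-limit ones. The 2 populations therefore had neutrophil genes at similar summed levels, and in the LTbR agonist library the sum was lower in the members. Hcar2, the receptor for niacin and the ketone body 3-hydroxybutyrate, was at 1809, 2238, 2069.8 and 2183 CPM in Ccl3-high and 691, 1163, 917 and 871 CPM in under-limit neutrophils. Cxcl3, a ligand of Cxcr2, was at 2829, 5959, 3539 and 4715 CPM against 1394, 2364, 1201 and 1483 CPM, and Cd24a, a glycoprotein on the cell surface, at 658, 752, 602 and 490.4 CPM against 345, 423, 431 and 285 CPM. Csf3r, the G-CSF receptor and the general neutrophil marker among the 5, was instead lower in the members, at 1179.7, 1337, 1625 and 1529 CPM against 1851, 1731, 2000.2 and 1989 CPM, although TMM scaling turned the ratio in 2 libraries. Hcar2, Cxcl3 and Cd24a were thus higher in the members of every library, Ccl3 is the gene of the rule itself, and Csf3r only places the cells among neutrophils.

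Markers of other leukocytes were mostly low in the members. The summed macrophage markers outside the rule were at 629, 610.3, 574 and 707 CPM in Ccl3-high and 807, 612, 609.9 and 989 CPM in under-limit neutrophils. Monocyte markers were at 197, 239, 322 and 334 CPM against 421, 648, 864 and 1341 CPM, lower in the members of every library. Dendritic cell markers, which include the MHC class II genes, were the most abundant of these, at 2977, 773, 1967 and 1626 CPM against 2115, 1244, 2778 and 3268 CPM, higher in the members of the untreated library and lower in the others. NK cell markers were at 110.1, 34.5, 233 and 56.4 CPM against 75.6, 55.1, 46.3 and 67.2 CPM, higher in the members of the untreated and LTbR agonist libraries, and Klrb1c was at 0 in untreated and combination members. T cell markers were at 29.0, 17.2, 67.4 and 65.8 CPM against 70.6, 31.8, 56.9 and 77.8 CPM. B and plasma cell markers were at 26.1, 17.6, 56.7 and 143 CPM against 5.04, 10.1, 68.8 and 279 CPM, and Ms4a1 and Cd79b were at 0 in untreated members. Eosinophil, stroma and carcinoma markers reached at most 26.1, 59.1 and 78.3 CPM, and the eosinophil genes Prg2, Epx and Ear1 were at 0 in untreated members. The part of these other cell types in the differences below was not tested.

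Basophil and mast cell markers stood apart, at 951, 99.4, 274 and 243 CPM in Ccl3-high neutrophils and 12.6, 13.5, 10.6 and 9.23 CPM in under-limit ones. Basophils also express Hdc, the histamine-producing enzyme that the rule counts as a neutrophil gene, and Ccl3 and Ccl4. Among the members 14, 7, 7 and 8 cells (8.81, 0.285, 1.52 and 1.51%) had at least 2 of 8 basophil genes, and no under-limit neutrophil did. The 8 genes were Mcpt8, Cpa3, Ms4a2, Fcer1a, Gata2, Cd200r3, Il4 and Prss34. Csf3r was found in 0, 0, 0 and 12.5% of those cells and in 82.8, 86.6, 84.8 and 72.9% of the other members, and their median S100a8 and S100a9 level was 0 against 341, 432, 441 and 447 UMIs per 10000. These few cells held 31.2, 1.81, 9.11 and 7.61% of the members' Ccl3 UMIs, so they weighed most in the untreated library. Leaving out every cell with a UMI of any of the 8 genes left 144, 2435, 453 and 520 members. Many results that this changed are given both ways, but some changes, among them in the counts of several gene lists, are not printed.

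The members held much of the Ccl3 of the sorted cells. Ccl3-high neutrophils were 2.04, 17.1, 3.29 and 3.37% of kept barcodes, yet carried 19.0, 50.1, 26.3 and 29.4% of all Ccl3 UMIs and 12.0, 42.1, 17.9 and 20.9% of all Ccl4 UMIs. Cells with Csf1r or C1qa, the macrophage class, carried 55.7, 40.1, 55.4 and 55.5% of Ccl3 and 64.5, 50.9, 65.5 and 60.9% of Ccl4. Ccl3 was at 8289, 8222, 6565 and 6735 CPM in members, 224, 313, 241 and 174 CPM in under-limit neutrophils and 252, 811, 248 and 233 CPM in the macrophage class, of which 12.7, 27.4, 13.1 and 11.7% of cells passed the same limit. The macrophage class thus held more of the Ccl3 UMIs than the members in 3 libraries and less in the STING agonist library, and the higher Ccl3 level of the members is fixed by their choice, since the macrophage class was not chosen on it.

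Free RNA was gauged in B lineage cells on the assumption that they lack both chemokines. That assumption was not tested, so their counts may include transcripts of their own. Of B lineage cells, 0 of 38 and 0 of 31 passed the limit in the untreated and STING agonist libraries, with upper Clopper-Pearson bounds of 9.25% and 11.2%, and 2 of 302 (0.662%) and 1 of 417 (0.240%) did in the other libraries. A Ccl3 UMI was present in 0, 0, 1.99 and 1.44% of B lineage cells at median depths of 16539, 23883, 9382 and 5711 UMIs, and in 89.3, 94.3, 89.6 and 87.0% of members at the lower depths given above. Under-limit neutrophils had a Ccl3 UMI in 26.9, 32.3, 24.8 and 16.0%. The shares of members and under-limit cells follow from the rule, so neither is a measure of signal above free RNA. The limit is a share of a cell's UMIs, so deep B lineage cells needed more UMIs of the pair to pass than shallow neutrophils, some of which passed with 2. The B lineage share over the limit therefore does not show how often free RNA lifted a neutrophil over it.

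Among neutrophils, the Ccl3-high share was highest after the STING agonist. It was 45.2% (159 of 352, Clopper-Pearson interval 39.9 to 50.5%) in untreated tumours, 60.8% (2455 of 4039, 59.3 to 62.3%) with the STING agonist, 55.5% (462 of 833, 52.0 to 58.9%) with the LTbR agonist and 46.8% (529 of 1130, 43.9 to 49.8%) with the combination. Relative to untreated this was 1.35 (1.20 to 1.51), 1.23 (1.08 to 1.40) and 1.04 (0.909 to 1.18) times the share, with log-normal intervals. The combination had 0.770 (0.720 to 0.823) times the share of the STING agonist and 0.844 (0.774 to 0.921) times that of the LTbR agonist. Both single agonists thus lay above untreated by more than counting error, and the combination lay below both of them and within counting error of untreated. Comparisons that use the untreated library, or the combination library, share it.

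As a share of all kept barcodes the order followed how many neutrophils each library held. Neutrophils made up 4.53, 28.2, 5.93 and 7.20% of kept barcodes, and Ccl3-high neutrophils 2.04, 17.1, 3.29 and 3.37%. The member share was 8.38 (7.16 to 9.82) times the untreated share with the STING agonist, 1.61 (1.35 to 1.92) times with the LTbR agonist and 1.65 (1.38 to 1.96) times with the combination. It was 0.197 (0.180 to 0.215) times the STING agonist share in the combination, and 1.02 (0.906 to 1.16) times the LTbR agonist share. Counting only cells of at least 1000 UMIs, the combination share was 1.18 (0.964 to 1.43) times the untreated share, within counting error, and 0.758 (0.653 to 0.880) times the LTbR agonist share. In sorted and pooled cells, more neutrophils cannot be told apart from fewer other leukocytes, and mouse-to-mouse spread is not measured.

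**Figure D1:**
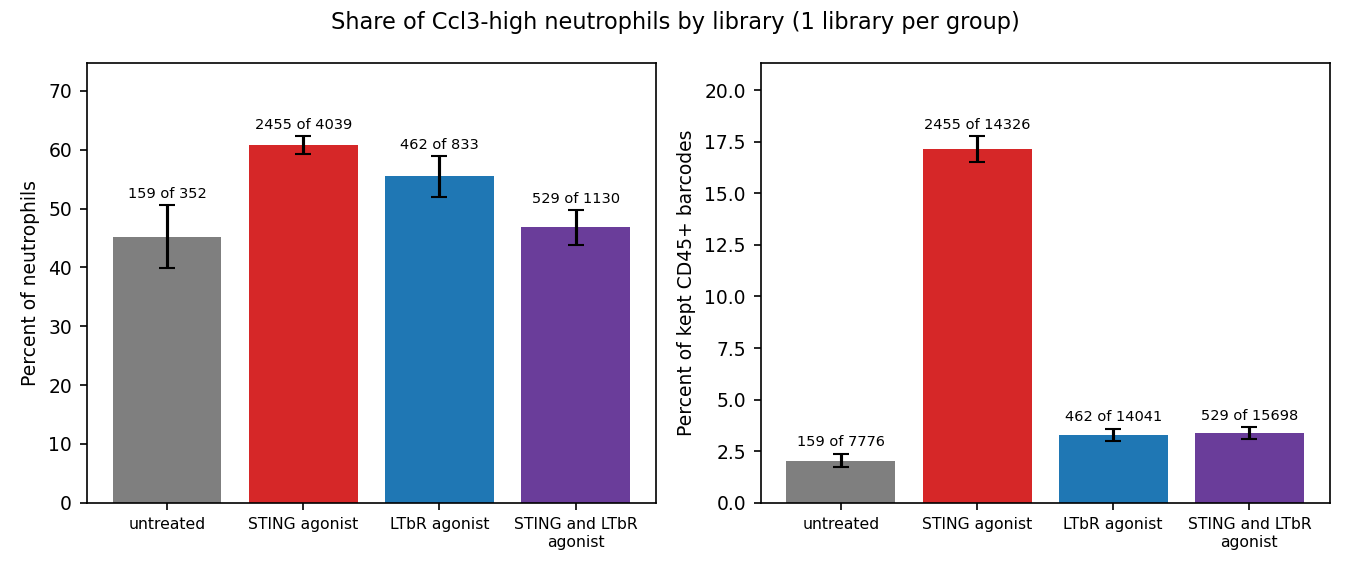
Share of Ccl3-high neutrophils among neutrophils and among kept barcodes (percent, y axis) in the 4 treatment groups (x axis), with exact 95% binomial intervals for counting error. The STING agonist group is highest in both, at 60.8% of neutrophils and 17.1% of kept barcodes.

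Within the members, the summed Ccl3 and Ccl4 level ranged widely in each library with medians close to each other. The median was 112, 108, 95.5 and 113 UMIs per 10000, the 10th percentile 31.5, 30.4, 29.7 and 30.1, the 90th percentile 540, 376, 410 and 396, and the highest cell 1200, 1422, 1744 and 1659. Both genes were detected in 74.2, 78.0, 71.0 and 71.3% of members, Ccl3 alone in 15.1, 16.3, 18.6 and 15.7%, and Ccl4 alone in 10.7, 5.74, 10.4 and 13%. The limit did not fall in an empty range, since 15, 138, 27 and 50 neutrophils lay between 15 and 20 UMIs per 10000 and 7, 134, 22 and 26 between 20 and 25. Of the under-limit cells 119, 859, 238 and 441 had neither gene. The median member rested on 20, 26, 16 and 12 UMIs of the pair, and 4, 99, 24 and 75 members (2.52, 4.03, 5.19 and 14.2%) on at most 3, so membership was least precise in the shallow combination library.

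**Figure D2:**
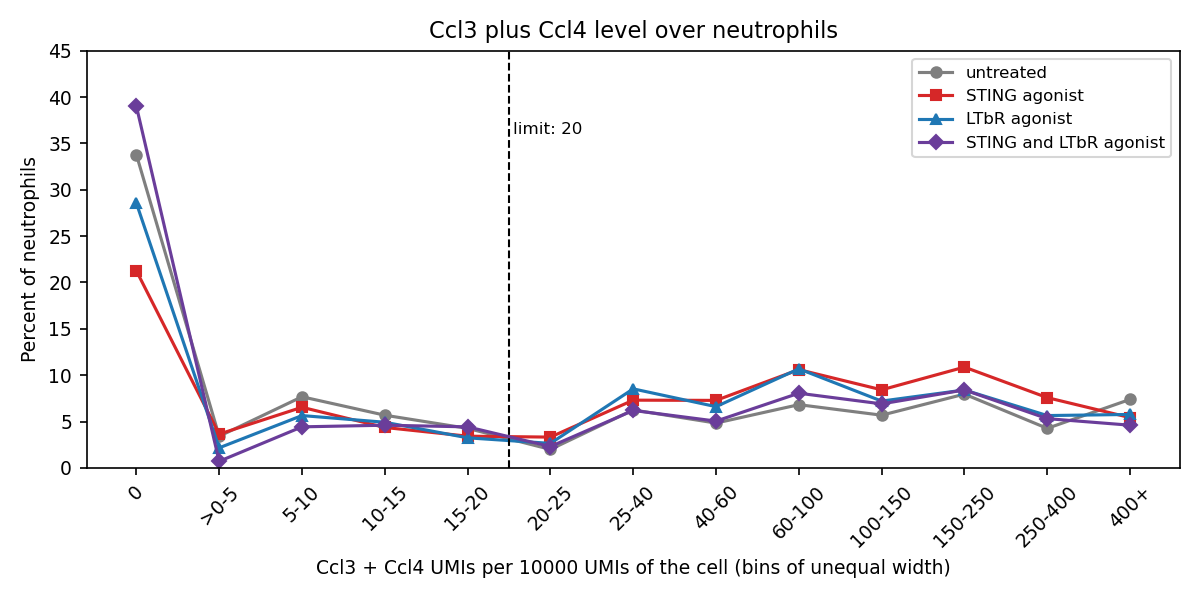
Distribution of the summed Ccl3 and Ccl4 level per neutrophil (UMIs per 10000 in classes of unequal width, x axis) as a percent of neutrophils (y axis) in each library, with the limit of 20 drawn in. Cells lie on both sides of the limit without a gap, and member medians are 112, 108, 95.5 and 113.

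Across genes, Ccl3-high neutrophils were set against under-limit neutrophils of the same library, over 2244 genes with at least 50 UMIs in every library. Log2 ratios of CPM, with 0.5 UMI added to each sum, are given below, and a gene counts as apart when the ratio was at least 2-fold in the same direction in all 4 libraries. Of these genes 13 (0.579%) were at least 2-fold higher and 7 (0.312%) at least 2-fold lower, and the 13 include Ccl3 and Ccl4, which the rule itself fixed. Without cells carrying basophil genes there were 9 higher and 9 lower. In the same direction at any size, 300 (13.4%) were higher and 923 (41.1%) lower, with a median log2 ratio of -0.24. These shares are the background for the counts of the gene lists below. Scaling by edgeR's TMM, which raised the ratios of the 4 libraries by 0.22, 0.44, 0.26 and 0.46 and the median by 0.36, gave 33 higher and 3 lower genes, and 721 against 323 in the same direction at any size. Small negative ratios therefore depend on the scaling. The reads that chose the cells and those that measured them were also separated, by splitting each cell's UMIs at random into 2 parts, 1 to choose and 1 to measure, and every list kept the sign of its median.

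Several chemokines other than the chosen pair were higher in the members. Cxcl2, a Cxcr2 ligand that attracts neutrophils, was at 38983, 55858, 37612 and 46393 CPM in Ccl3-high and 18772, 25099, 17314 and 19037 CPM in under-limit cells, with log2 ratios of 1.05 (1.01 to 1.10), 1.15 (1.14 to 1.16), 1.12 (1.09 to 1.15) and 1.29 (1.26 to 1.31). Ccl6, a ligand of Ccr1, was at 2377, 3412, 2540.2 and 2859.6 CPM against 1089, 1772, 1165 and 1179.8 CPM, and its log2 ratios were 1.12, 0.95, 1.12 and 1.28, with 0.41 for untreated without cells carrying basophil genes. Cxcl3 gave log2 ratios of 1.02, 1.33, 1.56 and 1.67, so it was apart in all 4 libraries, as was Cxcl2. Of the CC chemokine list 2 members passed the UMI filter, and both were higher in all 4 libraries, but Ccl9 had ratios of 4.66, 1.40, 2.51 and 0.94 with and 1.98, 1.11, 2.0 and 0.17 without cells carrying basophil genes. Of the CXC list 4 passed, of which Cxcl2 and Cxcl3 were higher and Cxcl16, a ligand of Cxcr6, lower in every library and also with TMM, with log2 ratios of -2.34, -0.74, -0.49 and -0.66. Among chemokine receptors, 3 passed and 2 were higher (3 with TMM), with Ccr1, the receptor that Ccl3 itself binds, at 0.15, 0.17, 0.25 and 0.50 and Ccrl2 at 0.48, 0.70, 0.71 and 0.52.

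Of the inflammatory cytokine list, 11 genes passed and 9 were higher in all 4 libraries, with a list median of 0.74 against -0.24 over all genes. Tnf, encoding tumour necrosis factor, was at 519, 609, 419.6 and 357 CPM against 207, 164, 147 and 113 CPM, with log2 ratios of 1.32 (0.94 to 1.72), 1.89 (1.77 to 2.02), 1.51 (1.20 to 1.84) and 1.65 (1.29 to 2.03). Il1a had ratios of 1.11, 1.05, 1.39 and 1.33 and Il1rn, which encodes the natural antagonist of the IL-1 receptor, 1.37, 1.15, 1.26 and 1.17, so an agonist and the antagonist of 1 receptor were both higher. Il1b, the other IL-1 agonist, was very abundant and nearly equal, at 22286, 23351, 21615 and 24351 CPM against 21674, 23387, 20406 and 22472 CPM, with ratios of 0.04 (0.00 to 0.08), 0.00 (-0.01 to 0.01), 0.08 (0.05 to 0.11) and 0.12 (0.08 to 0.15). Csf1, the macrophage growth factor, had ratios of 1.20, 0.82, 1.34 and 1.08, or 0.65, 0.77, 1.23 and 0.89 without cells carrying basophil genes, and Il23a, a subunit of IL-23, 0.04, 1.12, 0.36 and 1.15. Vegfa, the vessel growth factor, went in no common direction, at -0.48, 0.09, 0.21 and 0.00. Il6 had ratios of 7.19, 1.69, 8.18 and 3.78, but without cells carrying basophil genes -1.99, -0.33, 5.70 and -0.16, and no common direction was left (no under-limit cell of the LTbR agonist library had a UMI).

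The markers and surface genes followed. Hcar2 had log2 ratios of 1.39 (1.18 to 1.60), 0.94 (0.89 to 0.99), 1.17 (1.05 to 1.30) and 1.32 (1.19 to 1.46), and Cd24a 0.93 (0.62 to 1.25), 0.83 (0.75 to 0.92), 0.48 (0.28 to 0.69) and 0.78 (0.53 to 1.04). With each cell thinned to 1000 UMIs, Hcar2 was detected in 66.9, 74.3, 74.2 and 73.0% of members and in 39.1, 49.5, 44.8 and 42.0% of under-limit neutrophils, counting the 142, 2250, 391 and 296 members and the 161, 1373, 306 and 333 under-limit cells with that depth. Unthinned, the shares were 78.6, 86.4, 82.9 and 71.1% against 50.8, 63.3, 57.4 and 46.6%. Of the metabolite and surface gene list 11 passed, 3 were higher (Hcar2, Cd24a and the adhesion ligand Icam1) and 3 lower (7 and 1 with TMM), among the lower the costimulatory ligand Cd86 at -1.07, -1.07, -0.50 and -1.56, negative also with TMM, and the inhibitory receptor Pilra at -1.22, -0.59, -0.75 and -0.44, which TMM turned to 0.02 in the combination library. Cd274, encoding the checkpoint ligand PD-L1, was at 1365, 1908, 1676 and 1374 CPM against 1031, 1043, 787 and 635 CPM, with ratios of 0.40, 0.87, 1.09 and 1.11. It belongs to the immune regulation list, of which 15 passed, 9 were higher and 2 lower (10 and 0 with TMM, median 0.18). Ptgs2, the inducible cyclooxygenase of prostaglandin synthesis, was in the same list at 0.42, 0.45, 0.48 and 0.68.

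NF-kB targets were mixed. Of 21 that passed, 10 were higher and 3 lower in all 4 libraries (16 and 1 with TMM), with a median of 0.29. Nfkbia, the inhibitor that NF-kB itself induces, was at 5997, 7599.7, 5794 and 6304 CPM against 3195, 3999, 2941 and 3227 CPM, with ratios of 0.91, 0.93, 0.98 and 0.97. Ier3, an early response gene, had ratios of 0.74, 0.78, 0.74 and 0.80 and Tnfaip3, encoding the feedback enzyme A20, 0.73, 0.43, 0.46 and 0.65. Bcl3 (-0.34, -0.48, -1.03 and -0.53), Nfkbie (-0.12, -0.50, -0.24 and -0.94) and Birc3 (-0.03, -0.25, -0.03 and -0.25) were lower, but with TMM Birc3 was positive in all 4 libraries and Nfkbie in 2 of them, and only Bcl3 stayed negative in every library. The survival list had 11 genes that passed, 6 of them higher (10 with TMM and 9 without cells carrying basophil genes, median 0.30), among them Mcl1, which neutrophils need to survive, at 0.07, 0.27, 0.33 and 0.47, and Gadd45b at 0.70, 0.71, 0.83 and 0.63. Reads of Bcl2a1a, Bcl2a1b and Bcl2a1d, near-identical copies in that list, may be split between them.

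Many genes induced by low oxygen were also higher. Of the hypoxia and glycolysis list 24 passed, and 14 were higher and 1 lower in all 4 libraries, with a median of 0.44. Hilpda, a lipid droplet protein induced by HIF-1, was at 585, 1185, 551 and 487 CPM against 159, 469, 208 and 171 CPM, with ratios of 1.87 (1.47 to 2.31), 1.34 (1.26 to 1.41), 1.40 (1.14 to 1.68) and 1.5 (1.21 to 1.81). Ero1a, an oxidase of protein folding, had ratios of 1.53, 1.10, 1.44 and 1.79 (0.95 for untreated without cells carrying basophil genes), Egln3, an oxygen-sensing hydroxylase, 0.80, 0.99, 1.12 and 1.24, and Hk2, a hexokinase, 1.14, 0.80, 0.96 and 0.98. Hif1a itself had no common direction, at -0.87, -0.11, 0.26 and 0.13 (0.32 with TMM in the STING agonist library), and Ndrg1 was lower at -0.70, -0.69, -0.02 and -1.26, but at 0.24 with TMM in the LTbR agonist library. F3, encoding tissue factor, which starts coagulation, was named by the size rule at 1.28, 1.34, 2.04 and 1.84. The tumour and tissue neutrophil list had 20 genes that passed, of which 13 were higher and none lower in all 4 libraries (median 0.55). Its most abundant member Fth1, the ferritin heavy chain, was at 18579, 35672, 19824 and 23118 CPM against 12438, 19650.1, 11348 and 12649 CPM, and Hmox1, heme oxygenase, had ratios of 1.07, 0.92, 0.78 and 0.71. Siglecf, often used for tumour neutrophils, had a UMI in 4.40, 3.30, 2.38 and 2.08% of members and did not pass.

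Some granule genes of younger neutrophils were lower. No gene of the primary granule list passed the filter. Of the secondary granule list 5 passed and 3 were lower in all 4 libraries, with a median of -1.31. Ngp, neutrophilic granule protein, was at 0, 5.78, 7.09 and 12.5 CPM in members and 378, 295, 2233 and 365 CPM in under-limit cells, and as no untreated member had a UMI the untreated difference was at least 43.5-fold (floor of 3 UMIs in the library). These reads came from few cells, since 2, 22, 20 and 8 under-limit cells held them and the top cell alone had 99.3, 49.8, 30.1 and 91.3%. The Ltf counts, for lactoferrin, were as uneven, with 95.2% of the UMIs of combination under-limit cells in 1 cell. Of 13 tertiary granule and mature neutrophil genes that passed, 2 were higher and 6 lower (2 and 1 with TMM), with a median of -0.28 (0.03 with TMM), close to the 13.4% higher, 41.1% lower and median of -0.24 of all genes. Mmp9, a gelatinase, had ratios of -1.12, -0.68, -1.36 and -0.74, which stayed negative with TMM, whereas Il1r2, the IL-1 decoy receptor, at -0.64, -0.56, -0.23 and -0.44, and Csf3r, at -0.65, -0.37, -0.30 and -0.38, changed sign in 2 libraries each with TMM. Retnlg, a secreted resistin-like protein of blood neutrophils, differed between libraries, at 0.33, -0.35, -1.59 and -0.10, with the second and last ratio positive under TMM.

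The NADPH oxidase and lipid mediator list had 11 that passed, 1 higher and 5 lower (3 and 0 with TMM) and a median of -0.31 (0.05 with TMM), which is also close to all genes. Rac2, a GTPase of the oxidase, had ratios of -0.57, -0.46, -0.66 and -0.37, and turned positive with TMM in the combination library, at 0.09. Of the 15 genes named for the lowest ratios, 13 lie outside the granule lists. Tbxas1, thromboxane synthase, had ratios of -2.15, -1.55, -2.32 and -1.94, Slc8a1, a sodium-calcium exchanger, -1.23, -1.02, -1.45 and -1.40, Plcg2, a phospholipase, -1.67, -1.09, -1.0 and -1.07, and Prkcb, a protein kinase C, -1.12, -0.92, -1.09 and -0.93. Pid1 (-2.18, -1.50, -1.04 and -1.34), Maml2 (-1.06, -1.21, -2.01 and -1.71), Stim2 (-0.97, -1.07, -1.17 and -1.61), Pde3b (-1.25, -1.44, -0.96 and -1.23), Camk2d (-1.62, -1.0, -0.89 and -1.84), Cdk14 (-1.13, -0.88, -1.10 and -1.03), Slc22a15 (-0.90, -1.04, -1.04 and -1.07), Agps (-0.98, -0.89, -1.03 and -1.08) and Klf13 (-0.92, -0.88, -1.21 and -1.27) completed them, and all 13 stayed negative in every library with TMM. The summed monocyte markers were lower in the same cells, and their part was not tested.

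Interferon-stimulated genes had no common direction. Of 25 that passed, 3 were higher and 6 lower in all 4 libraries (8 and 1 with TMM, 6 and 5 without cells carrying basophil genes), with a median of 0.08. Over all 2244 genes 13.4% were higher and 41.1% lower, and 721 and 323 with TMM, so the share of higher genes was near that of all genes. Rsad2, the antiviral protein viperin, had ratios of 0.50, 0.53, 1.13 and 1.79, and Isg20, an exonuclease, 0.28, 0.46, 0.78 and 1.17, with Slfn4 the third higher gene at 0.04, 0.27, 0.57 and 0.78. Of the STING and LTbR pathway list 6 passed, 1 was higher and 3 lower (1 and 1 with TMM), with the kinase Tbk1 higher (0.20, 0.41, 0.39 and 0.51) and Ltb, which encodes the LTbR ligand lymphotoxin-beta, lower (-0.53, -0.58, -0.57 and -0.57), also with TMM. These counts were near the shares of all genes, 13.4% higher and 41.1% lower, so they describe no trait of the list. Sting1 and Ltbr did not pass the filter in these cells. The Toll-like and IL-1 receptor list had 8 that passed and 3 higher (5 with TMM, median 0.11), namely Nlrp3, Irak2 and Irak3.

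Immediate early genes, which tissue digestion can also induce, had 9 higher and 2 lower among 19 that passed (median 0.23). With TMM there were 16 and 1 (median 0.55), and without cells carrying basophil genes 10 and 3 (median 0.10). Egr1 had ratios of 0.97, 0.44, 0.52 and 0.88 and Jun 0.98, 0.44, 0.83 and 0.95, while Fos, at -0.48, -0.28, -0.23 and -0.36, and Btg2, at -0.57, -0.55, -0.59 and -0.59, were lower, though Fos turned positive with TMM in 3 libraries while Btg2 stayed negative. All libraries were digested alike per the labels, and the part of digestion was not tested. Of 7 heat shock genes that passed, Hsp90aa1 was higher in all 4 libraries at 0.81, 0.06, 1.05 and 0.55 (5 genes were with TMM), and the list median of 0.38 was 0.13 without cells carrying basophil genes. Of 19 transcription factors 6 were higher and 4 lower (10 and 0 with TMM), led by Tgif1, a repressor, at 0.79, 0.91, 0.91 and 0.92, and Maff at 0.50, 0.61, 0.87 and 0.58. The factor Spi1, encoding PU.1, was at -0.26, -0.29, -0.69 and -0.52, with 1 library positive under TMM. Il4, which the size rule also named as higher, rested on the cells with basophil genes.

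**Figure D3:**
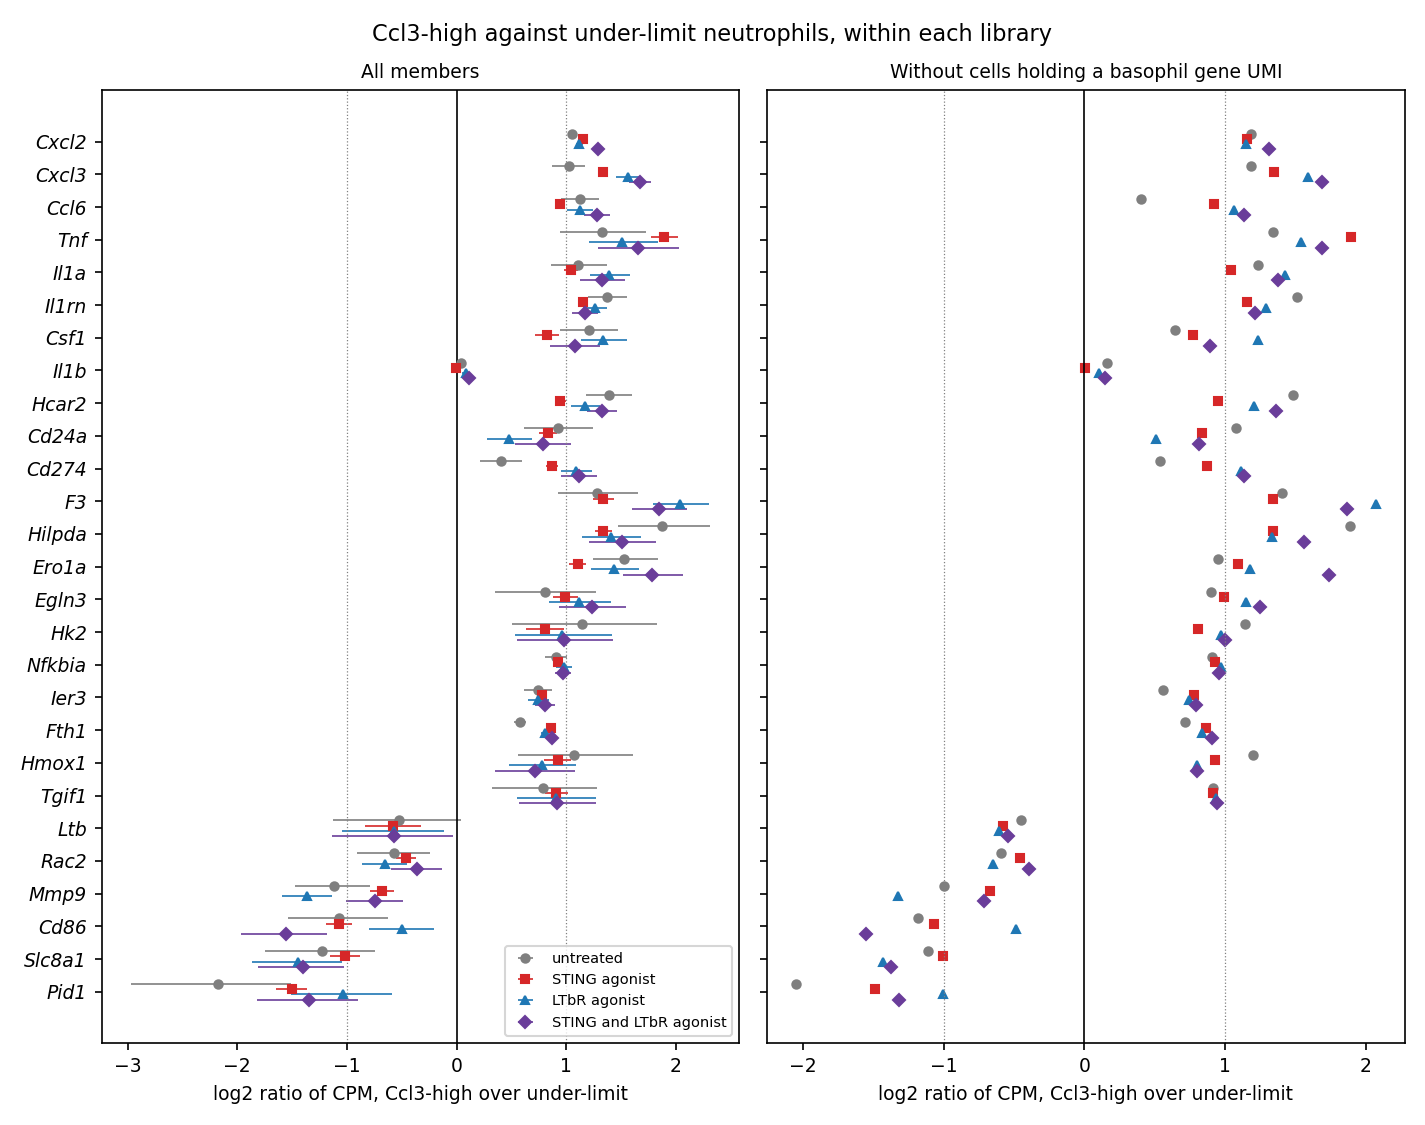
Log2 ratio of CPM between Ccl3-high and under-limit neutrophils (x axis) for 27 genes (y axis), with 1 point per library; the left plot shows all cells with exact 95% intervals and the right plot leaves out cells carrying basophil genes and has no error bars. Cxcl2, Tnf and Hilpda lie above 1 in all 4 libraries, Il1b lies near 0, and Ccl6, Ero1a and Csf1 move most between the plots.

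Levels changed by degrees when neutrophils were divided into 6 classes by summed Ccl3 and Ccl4, namely no UMI, under 20, 20 to 50, 50 to 100, 100 to 200 and at least 200 UMIs per 10000. Cxcl2 was higher in each next one of the classes of the STING agonist library, at 21888, 27982, 35957, 46654, 57967 and 75955 CPM, and in the untreated library, with 39 cells in each of 2 classes, it was at 19145, 18322, 24529, 47176, 41185 and 47177 CPM, where neighbouring classes changed order. Hcar2 in the STING agonist library was at 1055, 1260.5, 1685, 2103, 2270.3 and 2722 CPM, and Il1r2 went the other way, at 4310.3, 3282, 3048, 2763, 2599.8 and 1972 CPM. Il1b stayed between close limits there, at 23854, 22967, 23143, 22999, 24004 and 23224 CPM. The classes share the abundance of Ccl3 and Ccl4 with the rule, so the order across them is a description.

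**Figure D4:**
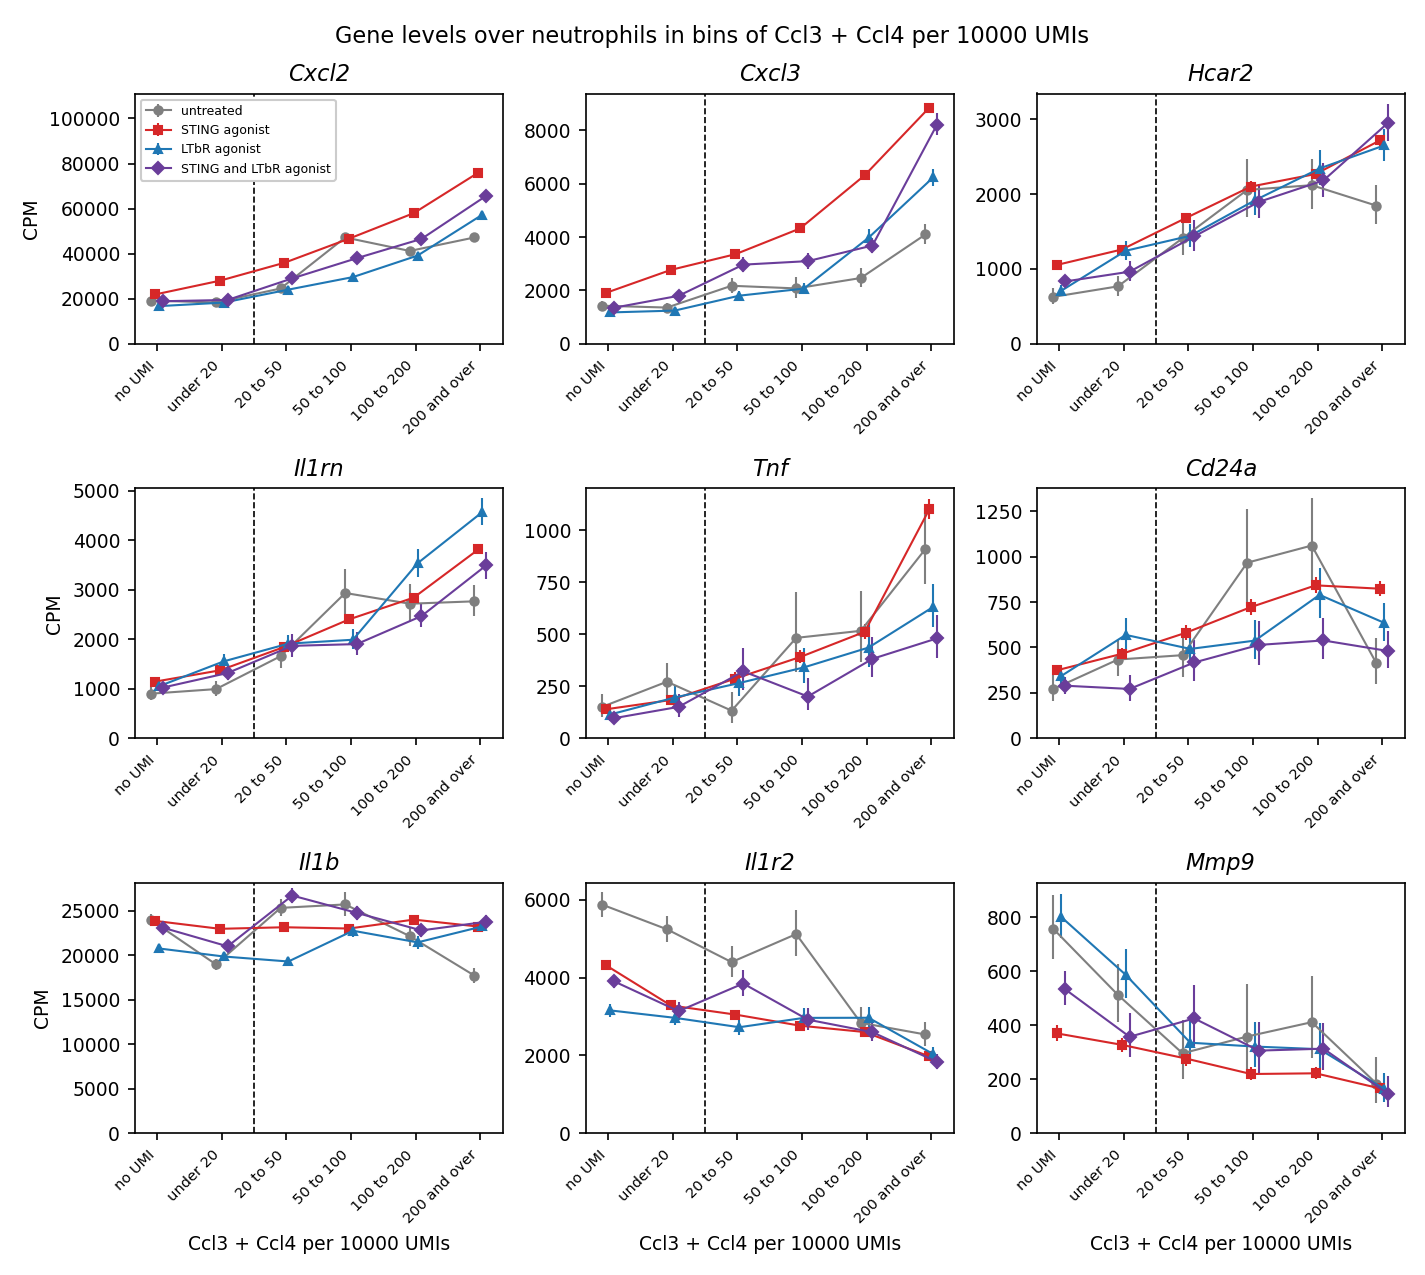
CPM (y axis) of 9 genes in neutrophils divided by their summed Ccl3 and Ccl4 level (UMIs per 10000, x axis), with 1 line per library, Poisson 95% intervals and a dashed line at the limit of 20. Cxcl2, Cxcl3, Tnf and Hcar2 are higher in the high classes, Il1b is nearly level apart from the untreated library, where it is lowest in the highest class, and Il1r2 and Mmp9 are lower in the high classes.

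The 4 treatment groups were then compared within Ccl3-high neutrophils, over genes with at least 100 UMIs in the 2 libraries of each comparison. Of the 5 comparisons, 3 share the untreated library and 3 the combination library, so they are not independent, and a 2-fold limit on 1 library per group is a rule of size and not a test. TMM shifted every ratio by 0.53 for the STING agonist, 0.26 for the LTbR agonist and 0.30 for the combination, each against untreated, by -0.23 for the combination against the STING agonist and by 0.04 against the LTbR agonist. Log2 ratios are given with exact 95% intervals, and those smaller than the shift and of opposite sign change direction with TMM. For Ccl4 itself, the log2 ratio of the STING agonist to untreated was -0.48 (-0.52 to -0.43), opposite in sign to the shift and smaller than it, and for Ccl3 it was -0.01 (-0.07 to 0.04), so both turn positive with TMM. Without cells carrying basophil genes these ratios were -0.14 and 0.35. The rule chose the members on these 2 genes, so their levels within members follow in part from that choice and the ratios are a description only.

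The members' levels in the 4 libraries underlie these ratios. Cxcl3 was at 2829, 5959, 3539 and 4715 CPM and Hilpda at 585, 1185, 551 and 487 CPM, both highest with the STING agonist. Il23a was at 95.6, 268, 69.7 and 199 CPM, high in the 2 libraries that received the STING agonist, and Rsad2 at 620.3, 680.4, 1136 and 1194 CPM, high in the 2 that received the LTbR agonist. Hspa1a was at 107, 265, 361 and 273 CPM, lowest in untreated members, and Nos2 at 14.5, 74.5, 70.9 and 23.5 CPM. Retnlg was at 762, 1740.4, 1475 and 1617 CPM in members and 608, 2224, 4430.4 and 1736 CPM in under-limit cells. Il1b (22286, 23351, 21615 and 24351 CPM) and Hcar2 (1809, 2238, 2069.8 and 2183 CPM) were close across treatments.

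With the STING agonist against untreated, 198 of 4439 genes (4.46%) were at least 2-fold higher and 506 (11.4%) at least 2-fold lower (609 and 105 with TMM). At any size 36.5% of all genes were higher, with a median of -0.21. Cxcl3 was at 5959 against 2829 CPM, a log2 ratio of 1.07 (0.98 to 1.17), against 0.76 (0.64 to 0.89) in under-limit neutrophils. Cxcl2 had a ratio of 0.52 (0.49 to 0.54), and Fth1 of 0.94 (0.91 to 0.98). Of the hypoxia and glycolysis genes 24 of 26 were higher and 4 at least 2-fold, with a median of 0.39. Hilpda was at 1185 against 585 CPM (1.01, 0.82 to 1.23 on the log2 scale), and Ldha, lactate dehydrogenase, at 986 against 484 CPM (1.02, 0.80 to 1.26). Il23a had a ratio of 1.47 (0.99 to 2.03) and Fpr1, a receptor for formyl peptides, of 1.45 (1.04 to 1.94). Nos2, the inducible nitric oxide synthase, was at 2.23 (1.13 to 3.99) from 490 against 5 UMIs. Nos2 passed the UMI filter through the deeper STING agonist library alone, so its high ratio follows in part from the filter.

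Of 16 tertiary granule and mature neutrophil genes, 10 were higher with the STING agonist (median 0.29). Retnlg had a log2 ratio of 1.19 (1.01 to 1.37) and Lcn2, the iron carrier lipocalin, of 1.30 (1.01 to 1.63). The NF-kB list was higher in 15 of 21 (median 0.19), with the adaptors Traf1 at 1.06 (0.67 to 1.52) and Tnip1 at 1.44 (0.80 to 2.27). The tumour and tissue neutrophil list was higher in 17 of 21 (median 0.45), and survival genes in 8 of 14. Of interferon-stimulated genes 18 of 31 were higher, with a median of 0.11 against -0.21 over all genes, and Isg15 had a ratio of 0.44 (0.31 to 0.58), to each of which TMM adds 0.53. Of immediate early genes 4 of 21 were higher, with a median of -0.34 against -0.21 over all genes, both of which TMM turns positive. Nr4a1 was at -0.99 (-1.13 to -0.85), which stays negative with TMM, or -0.90 without cells carrying basophil genes. Csf1 was at -1.24 (-1.39 to -1.07), or -0.75 without cells carrying basophil genes, and Id2, a repressor of basic helix-loop-helix factors, at -1.07 (-1.39 to -0.72), or 0.14 when 3 of the 4 neutrophil genes were required, and 1 cell held 37.6% of the Id2 UMIs of untreated members.

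The direction of 2 genes reversed when cells with basophil genes were left out, namely Il6 from -3.68 to 3.45 and Ccl9 from -1.57 to 0.78. Untreated members then had no Il6 UMI, so the size of that Il6 ratio depends on the 0.5 UMI added. By the size rule, which keeps genes with no more than 10% of the UMIs of the higher library in 1 cell, Fap, Ppox and Raph1 were named as higher, with 118, 109 and 103 UMIs against 0 in untreated members. F13a1, a coagulation factor subunit that is also a monocyte marker, was at 3.22 (1.68 to 6.59) from 443 against 2 UMIs, beside summed monocyte markers of 197 and 239 CPM in untreated and STING agonist members, and Plcb1 at 2.85 (0.94 to 8.74) from 206 against 1 UMIs. The lowest were Atp2a3, a calcium pump, at -2.49 (-3.10 to -1.79), Tmem71 at -2.06 (-2.62 to -1.42), Was, the actin regulator of Wiskott-Aldrich syndrome, at -1.59 (-2.15 to -0.94), Ripor2 at -1.56 (-1.78 to -1.32) and Nbeal2, needed for granules, at -1.51 (-2.12 to -0.78). Without cells carrying basophil genes Atp2a3 was at -1.56 and Tmem71 at -1.30, and the single untreated Plcb1 UMI was in such a cell. The 5 genes named as higher passed the filter of 100 UMIs through the deeper STING agonist library alone, so a high ratio follows in part from the filter, and they are given as a description.

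With the LTbR agonist against untreated, 33 of 1645 genes (2.01%) were at least 2-fold higher and 37 (2.25%) lower (99 and 13 with TMM). At any size 51.5% of all genes were higher, with a median of 0.02. Cxcl2 was near untreated, at 37612 against 38983 CPM with a log2 ratio of -0.05 (-0.08 to -0.02) that turns positive with TMM, and Cxcl3 had a ratio of 0.32 (0.22 to 0.43). Hspa1a, an inducible heat shock protein, was at 1.73 (1.25 to 2.28), and Hspa1b at 1.28 (0.82 to 1.79), and 5 of 6 heat shock genes were higher (median 0.71). The size rule did not name Hspa1a, because the top cell held over 10% of its UMIs in LTbR agonist members. For Hspa1b the top cell held 9.30%. Reads of Hspa1a and Hspa1b, near-identical copies, may be split between them. Interferon-stimulated genes were higher in 14 of 21 (median 0.37), with Oasl1, an antiviral protein, at 1.09 (0.66 to 1.57) and Rsad2 at 0.87 (0.66 to 1.09). Wfdc17, a small secreted inhibitor-like protein, was at 1.03 (0.90 to 1.17) and Retnlg at 0.95 (0.76 to 1.15). Hypoxia and glycolysis genes were balanced, with 12 of 24 higher (median 0.02).

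The size rule named Trp53inp1 (2.60, 1.75 to 3.76), Rhoq (1.89, 1.11 to 2.89), Dach1 (1.52, 0.98 to 2.14), Tnfrsf26 (1.49, 0.92 to 2.17) and Hspa1b as the highest with the LTbR agonist. It named Plp2 (-1.24, -1.81 to -0.67), Sipa1l1 (-1.13, -1.57 to -0.67), Herc1 (-1.09, -1.56 to -0.61), Rnf130 (-1.08, -1.62 to -0.55) and Rab11a (-1.04, -1.52 to -0.54) as the lowest. Trp53inp1 is a target of p53, and Rab11a acts in vesicle recycling.

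With the combination against untreated, 22 of 1405 genes (1.57%) were at least 2-fold higher and 44 (3.13%) lower (74 and 20 with TMM). At any size 50.8% of all genes were higher, with a median of 0.01. Cxcl3 was at 4715 against 2829 CPM with a log2 ratio of 0.74 (0.63 to 0.84), and Il23a had a ratio of 1.04 (0.49 to 1.66). Over 10% of the Il23a UMIs of combination members were in 1 cell. Rsad2 was at 0.94 (0.72 to 1.17) and Oasl1 at 1.03 (0.58 to 1.52), and 10 of 16 interferon-stimulated genes were higher (median 0.23). Hypoxia and glycolysis genes were balanced, 12 of 23 being higher (median 0.05), as were tumour and tissue neutrophil genes, 9 of 19 (median -0.01, below the TMM shift). Id2 was at -1.77 (-2.32 to -1.24), or -0.53 when 3 of the 4 neutrophil genes were required, against the same uneven untreated counts. By the size rule Tgm1 (1.55, 0.85 to 2.40), Dach1 (1.49, 0.94 to 2.12), Cish, a feedback inhibitor of cytokine signals (1.43, 0.82 to 2.15), Hspa1a (1.33, 0.83 to 1.90) and Tnfrsf26 (1.31, 0.71 to 2.0) were highest, and Rab11a (-1.37, -1.95 to -0.82), Rnf130 (-1.23, -1.83 to -0.64), Diaph2 (-1.17, -1.57 to -0.77) and Herc1 (-1.10, -1.62 to -0.59) were among the lowest.

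With the combination against the STING agonist, 90 of 4496 genes (2%) were at least 2-fold higher and 150 (3.34%) lower (43 and 259 with TMM). At any size 55.4% of all genes were higher, with a median of 0.06. Most hypoxia and tissue genes were lower in the combination, with 5 of 26 hypoxia and glycolysis genes higher (median -0.23) and 5 of 22 tumour and tissue neutrophil genes higher (median -0.50). Hilpda was at 487 against 1185 CPM, a log2 ratio of -1.28 (-1.45 to -1.12), against -1.45 (-1.72 to -1.19) in under-limit cells. Tpi1, triosephosphate isomerase, was at -1.06 (-1.34 to -0.81), Ldha at -0.84 (-1.0 to -0.68) and Fth1 at -0.63 (-0.65 to -0.60). Tnf was at -0.77 (-0.97 to -0.58) and Il1a at -0.64 (-0.77 to -0.53), while Il1b was at 0.06 (0.04 to 0.08), which turns negative with TMM. Nos2 was at -1.62 (-2.51 to -0.93) and Pdcd1lg2, encoding the checkpoint ligand PD-L2, at -1.34 (-2.04 to -0.77). Both passed the filter through the deeper STING agonist library alone, so their low ratios follow in part from the filter. Rsad2 was higher, at 0.81 (0.70 to 0.92), and immediate early genes were higher in 18 of 21 (median 0.26).

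The size rule named Tuba1b (1.69, 1.07 to 2.24), Cass4 (1.52, 1.36 to 1.68), Pla2g15 (1.48, 0.69 to 2.16), Pik3cd (1.42, 0.98 to 1.82) and Fam241a (1.33, 0.63 to 1.94) as highest in the combination against the STING agonist. It named as lowest Trp53inp2 and Slc43a3, with 0 UMIs in combination members against 107 and 104. Mrpl45 (-2.62, -6.00 to -1.06), Gramd1c (-2.49, -5.0 to -1.14) and Tspan31 (-2.15, -5.53 to -0.58) had 2, 3 and 2 UMIs there, and all 5 passed the filter through the deeper STING agonist library alone, so their low ratios follow in part from the filter. Pik3cd encodes a leukocyte PI3 kinase and Tuba1b a tubulin.

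With the combination against the LTbR agonist, 13 of 1888 genes (0.689%) were at least 2-fold higher and 10 (0.53%) lower, and 42.4% were higher at any size. Il23a was at 199 against 69.7 CPM, a log2 ratio of 1.51 (1.06 to 1.98), and Cxcl3 at 0.41 (0.34 to 0.49). The size rule did not name Il23a, because 1 cell held over 10% of its UMIs in combination members. The NF-kB list was higher in 18 of 21 (median 0.12 against -0.05 over all genes), and 6 of 24 interferon-stimulated genes were higher (median -0.16). Hspa1b was at -1.16 (-1.53 to -0.81) and Id2 at -1.21 (-1.73 to -0.73). By the size rule Cnnm2 (1.15, 0.62 to 1.71), Sipa1l1 (1.08, 0.69 to 1.48), Slc16a6 (1.08, 0.54 to 1.64), Mrps28 (0.89, 0.44 to 1.34) and Tbc1d14 (0.88, 0.34 to 1.43) were highest, and Trp53inp1 (-1.06, -1.54 to -0.62), Glipr1 (-0.90, -1.58 to -0.29) and Rragc (-0.89, -1.52 to -0.31) were low beside Id2 and Hspa1b.

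**Figure D5:**
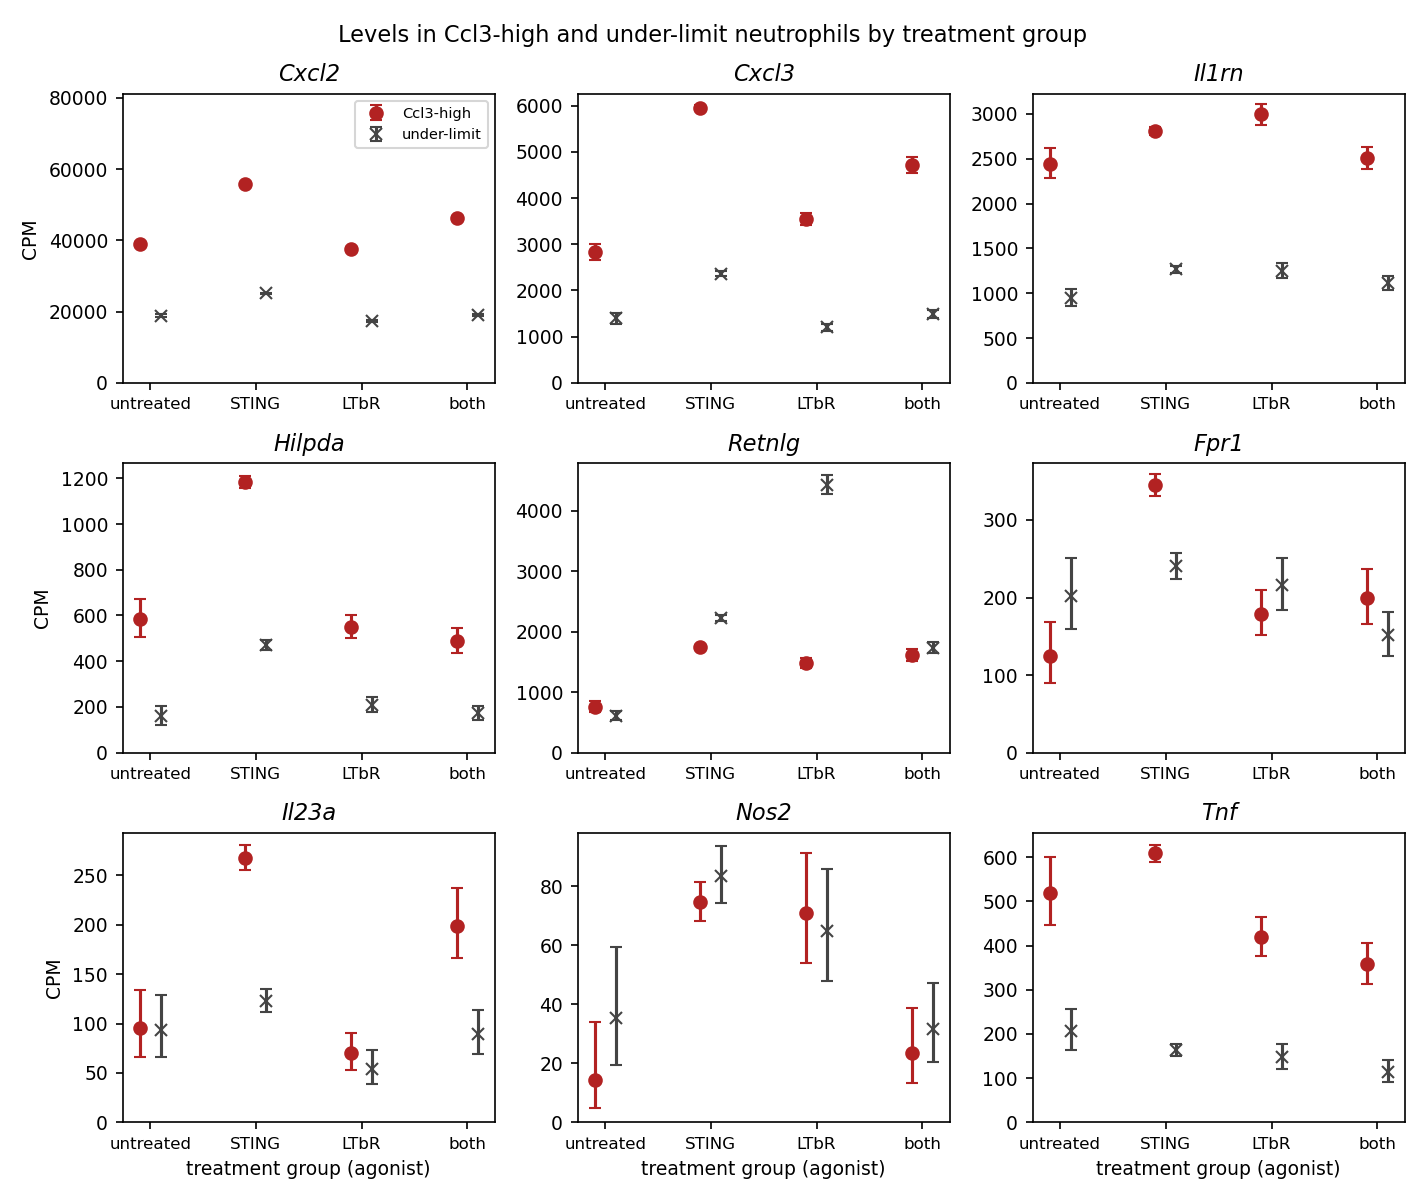
CPM (y axis) of 9 genes in Ccl3-high and under-limit neutrophils of the 4 treatment groups (x axis), with Poisson 95% intervals for counting error. Cxcl3 and Hilpda are highest in members of the STING agonist library, and Il1rn differs more between members and under-limit cells than between treatments.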

How the data were processed

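Single-cell RNA was captured with a 10x 5′ kit (the labels name GEM-X 5′ version 3, the methods of the study an earlier kit), and the deposited files hold UMI counts per gene and barcode for 33696 features, with no normalization by the authors. Per the file headers the matrices were written by Cell Ranger 8.0.1, whereas the submitters' processing notes name Cell Ranger 7.1.0 and build mm10. The series is the second of the study's 2 experiments, and the first is not analysed here.

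Counts were summed over the chosen cells of each library and divided by their total UMIs. Ratios used 0.5 UMI added to each sum, genes with at least 50 UMIs in each library (Ccl3-high against under-limit) or 100 UMIs over both libraries (treatments), and exact conditional binomial intervals. Shares had Clopper-Pearson and their ratios log-normal intervals. With 1 library per group no test was made, and intervals cover counting error only. The members and gene lists were chosen with earlier results of these data known. Genes named beyond the 20 lists and the markers were the 15 highest and 15 lowest by the smallest ratio over the 4 libraries, and the 5 each way per treatment comparison with no cell over 10% of the UMIs of the higher library. The genes of the rule, receptor segments, mitochondrial, ribosomal, haemoglobin, predicted and sex-linked genes were left out of that naming. Azu1, Cmkrl1, Ddx58 and Niacr1 matched no symbol of the files. The calculation was tested on simulated data. Alternatives were other limits (10 and 40), 3 of 4 neutrophil genes, a stricter exclusion of other cell types by 14 genes, Scrublet (its automatic threshold marked 0, 0, 1 and 0 cells, so 305, 949, 857 and 1066 were removed by rank), at least 1000 UMIs, thinning to 1000 UMIs, means over cells, TMM, no filter and leaving out each library. Leaving out cells with basophil genes was added after seeing the data. Doublets were otherwise not removed. A few genes of the lists and rules are not reported here. Python 3.11.15, numpy 2.4.6, pandas 2.3.3, scipy 1.17.1, scanpy 1.11.5, R 4.3.3 and edgeR 4.0.16 were used. Promoter sequences are from RefSeq (GRCm38.p6).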

Additional observations from a re-analysis of the deposited data

Results flagged for a closer look

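The Hspa1b difference between the combination and the LTbR agonist was of opposite sign in the 2 neutrophil populations. It was -1.16 (-1.53 to -0.81) on the log2 scale in Ccl3-high neutrophils and 0.62 (0.17 to 1.08) in under-limit neutrophils. Bcl2, a survival gene, differed in the same way for the STING agonist against untreated, at 1.58 (0.02 to 4.96) in Ccl3-high and -1.19 (-1.89 to -0.38) in under-limit neutrophils. The Bcl2 value rests on 2 UMIs in untreated members, and without cells carrying basophil genes it was 3.70 with 0 UMIs there, so its size depends on the 0.5 UMI added. Oasl1 also had opposite signs for the LTbR agonist against untreated, at 1.09 (0.66 to 1.57) against -0.79 (-1.20 to -0.37). Spp1, which encodes osteopontin, was lower in Ccl3-high than in under-limit neutrophils of the combination, at -1.07 (-1.27 to -0.88), and higher in untreated tumours, at 2.98 (2.61 to 3.38), where 1 cell held 41.6% of the members' Spp1 UMIs. In all 4 cases the intervals cover counting error only, each sign rests on 1 library per group, and the difference itself was not tested.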

How the results depend on the processing

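No paired analysis was possible because each group is 1 library. The ratios of the Ccl3-high share among neutrophils stayed within their counting intervals of the reported values under every alternative run, and leaving out cells with basophil genes moved no share or ratio beyond its counting interval and no count of genes past 1.5 times. As a share of kept barcodes, requiring 3 of 4 neutrophil genes gave a combination to STING agonist ratio of 0.178. Keeping cells with at least 1000 UMIs gave 1.18 (0.964 to 1.43) for the combination against untreated, which ends the excess over counting error, 0.133 against the STING agonist and 0.758 (0.653 to 0.880) against the LTbR agonist, and thinning gave 1.31 (1.09 to 1.59), 0.143 and 0.836 (0.727 to 0.960). The last 2 settings leave out cells under 1000 UMIs, which were most frequent in members of the combination.

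Of genes at least 2-fold apart between Ccl3-high and under-limit neutrophils (13 higher and 7 lower), a limit of 10 gave 4 lower and a limit of 40 gave 28 lower. Requiring 3 of 4 genes gave 8 higher and 2 lower, thinning 7 and 2, TMM 33 and 3, and no filter 45 and 212. Leaving out 1 library gave 10 to 30 lower genes, with 30 without the untreated, 13 without the STING agonist and 26 without the LTbR agonist library. In the STING agonist against untreated (198 and 506), 3 of 4 genes gave 285 lower, thinning 107 and 110, TMM 609 and 105, and no filter 675 and 8474. In the LTbR agonist against untreated (33 and 37), 3 of 4 genes gave 16 lower, Scrublet 70 lower, thinning 17 and 2, TMM 99 and 13, and no filter 1667 and 3406. In the combination against untreated (22 and 44), a limit of 40 gave 18 lower, 3 of 4 genes 11 and 7, thinning 12 and 4, means over cells 29 lower, TMM 74 and 20, and no filter 1148 and 3242. In the combination against the STING agonist (90 and 150), the stricter exclusion gave 49 higher, thinning 40 and 53, TMM 43 and 259, and no filter 5815 and 1044. In the combination against the LTbR agonist (13 and 10), a limit of 40 gave 8 higher, 3 of 4 genes 6 lower, Scrublet 8 and 6, 1000 UMIs 8 higher, thinning 7 and 3, and no filter 2152 and 2930. Thinning and the UMI filters change how many genes were counted, and otherwise the cause was not tested.

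Of single genes, Il4 between Ccl3-high and under-limit cells reversed to -0.18 with the stricter exclusion, and Il6 to -0.25 without cells carrying basophil genes. Against untreated, in the order STING agonist, LTbR agonist and combination, Il6 reversed to 1.83, 2.17 and 3.69 with 3 of 4 genes, to 2.11, 2.99 and 2.18 with the stricter exclusion and to 3.45, 4.41 and 3.07 without cells carrying basophil genes, when untreated members had 0 Il6 UMIs and the size depends on the 0.5 UMI added. In the combination against the STING agonist Il6 reversed to -0.38 without them. Ccl9 reversed to 1.00, 0.67 and 0.12 with 3 of 4 genes and to 0.78, 0.48 and 0.26 without those cells, and Id2 with the STING agonist to 0.14 with 3 of 4 genes. Over all alternatives, 5674 values of named genes stayed within a range set by counting error, 626 moved beyond it and 19 reversed. For treatment ratios the range was the counting interval of the value. For medians of Ccl3-high against under-limit cells it ran from the lowest to the highest bound of the 4 libraries, a wide range that few values could leave. Depth limits the untreated members most, with 345019 UMIs in 159 cells.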
